A study of Homo sapiens with 9 samples.

Results

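The comparison of FANCL-knockout (KO) with wild-type (WT) K562 cells under mock treatment rests on 4 lists of called γH2AX regions, 2 per genotype, out of 8 such lists in the series. Members were chosen by their calls on chromosomes 1 to 22. After regions that touched each other across the 4 lists were merged, 59286 loci remained. A locus was gained when both KO mock lists and neither WT mock list had called it, which held for 5290 loci (8.92%). It was lost when both WT mock lists and neither KO mock list had called it, which held for 1407 loci (2.37%). Across all 8 lists the merged loci numbered 137665. No filter was applied to the members, and since the calls chose them, their numbers are descriptions with no test.

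K562 is an established human myelogenous leukaemia line. Per the labels' protocols, WT and KO cells were grown in RPMI with serum and received a mock treatment or 5 nM PMA, a phorbol ester, for 72 h. The 9 samples were 8 γH2AX chromatin immunoprecipitation (ChIP-seq) libraries, 2 each of WT mock, KO mock, WT PMA and KO PMA, and 1 input library of WT mock cells against which every list had been called. The labels do not say whether the KO cells were 1 clone or whether each replicate was a culture of its own. The p-values therefore measure no more than how these libraries vary, and that variation may be technical. The lists hold no measurement of FANCL, so the genotype rests on the labels. As a check of the line, the median input signal was taken in segments known to be amplified in K562. It was 48.1 tags per kb in regions of the chromosome 22 segment that holds BCR. In the chromosome 9 segment that holds ABL1 and NUP214 it was 41.9, against 6.14 over all mock regions.

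FANCL is the ubiquitin ligase subunit of the Fanconi anaemia core complex, which attaches ubiquitin to FANCD2 and FANCI and so starts the repair of DNA crosslinks and the protection of stalled replication forks. Cells without it are hypersensitive to crosslinking agents, and inherited loss of the pathway causes bone marrow failure. γH2AX is the histone variant H2AX phosphorylated by the kinases ATM, ATR and DNA-PK. It spreads over long stretches of chromatin around DNA breaks and also marks stalled forks and unprotected telomeres.

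WT mock replicates 1 and 2 had a depth of 23.9 and 23.4 M (mega) tags, and KO mock replicates 1 and 2 of 17.8 and 15.6 M. The KO libraries were therefore the shallower ones, and their lists were the longer ones. The autosomal lists held 14062 and 11690 regions in WT mock and 24341 and 23884 in KO mock. They covered 9.61 and 8.17 Mb in WT mock and 17.2 Mb in each KO mock library, a mean 1.94 times as much, with no overlap between the groups (exact permutation p = 0.33, two-sided, the smallest that 2 libraries against 2 allow). The share of a library's tags inside its regions, which the file headers also give as the approximate efficiency of the immunoprecipitation, was 1.55 and 1.39% in WT mock and 3.42 and 3.67% in KO mock. More γH2AX and a more efficient immunoprecipitation cannot be told apart here. Neither can more cells carrying the mark and more mark per cell, nor a change of copy number in the KO cells, which had no input of their own. The log2 ratio of KO to WT covered length was 0.96 in all regions, 0.29 in regions that reached 6-fold over input and 0.18 when the same number of regions was taken from each list.

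At the chromosome ends γH2AX was lower in KO cells, and in the next few megabases inward it was higher. Within 200 kb of an end, the 2 WT mock libraries held 1.57 and 1.45 Mb of called length and the 2 KO mock libraries 0.241 and 0.251 Mb. That was 16.3 and 17.8% of the covered length in WT and 1.4 and 1.46% in KO. Between 1 and 5 Mb from an end the order was the opposite. There the WT libraries held 0.714 and 0.739 Mb and the KO libraries 3.55 and 4.01 Mb, which made up 8.23% ± 1.14 of the WT covered length and 22% ± 1.80 of the KO covered length (mean ± SD, n = 2 each). In both bands the genotypes did not overlap (exact permutation p = 0.33, the smallest possible). Both differences kept their direction under each alternative run for them. Within 200 kb of an end the log2 difference was −2.62 and ranged from −3.35 to −1.94 across the other choices of regions. From 1 to 5 Mb it was 2.38 and ranged from 1.39 to 4.13. In the band between these, from 200 kb to 1 Mb, the libraries held 1.79 and 2.0 Mb in WT and 1.60 and 1.75 Mb in KO, a log2 difference of −0.18 that turned to 0.80 with 1 window threshold for all libraries.

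The crossing point lay about 500 kb from the end. In the outermost 250 kb, the WT libraries held 47.8 and 44.7 kb per end over 39 autosome ends, and the KO libraries 8.15 and 8.23 kb. In the next 250 kb the values were 22.4 and 24.9 kb in WT and 13.8 and 15.1 kb in KO. In the other 38 of the 40 windows out to 10 Mb, both KO libraries lay above both WT libraries. In WT, γH2AX was thus piled up at the ends and sparse inside them. The KO profile was low at the end itself and higher in the next 250 kb. From 1250 to 1500 kb the KO libraries still held 11.8 and 13.9 kb, and they held less in each window beyond.

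**Figure D1:**
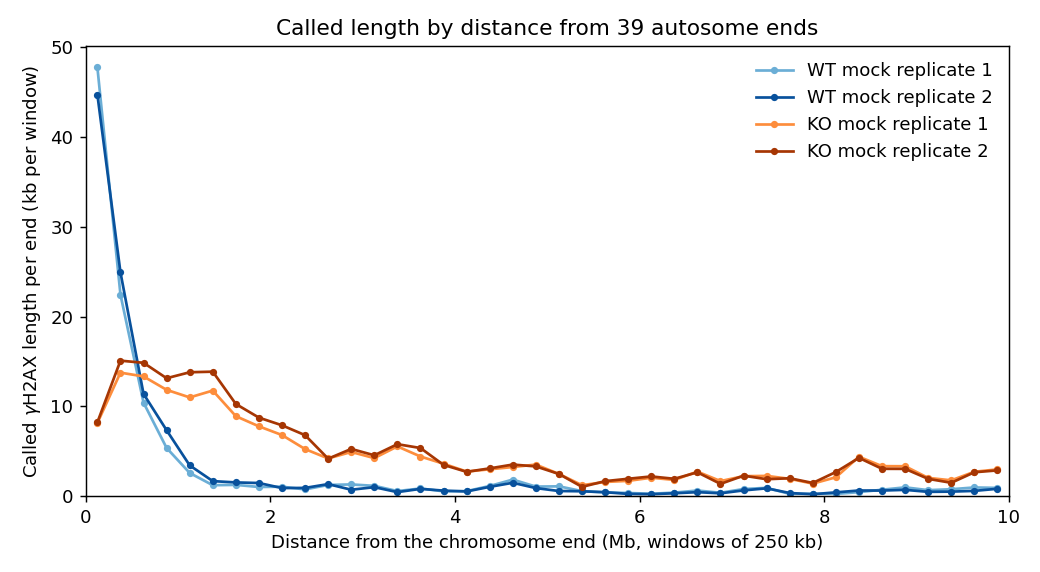
Called γH2AX length per chromosome end (kb, vertical axis) in windows of 250 kb by distance from the end (Mb, horizontal axis), 1 line per mock library, averaged over 39 autosome ends. The 2 WT lines start at 47.8 and 44.7 kb and fall below both KO lines from the third window on, while the KO lines start at 8.15 and 8.23 kb.

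The loss at ends was spread over most chromosomes. Within the last 200 kb, the KO values were all under the WT values at 32 of the 39 ends and all over them at 1, and at 6 the genotypes overlapped. At the start of chromosome 3, WT replicates held 67.8 and 68.6 kb in these 200 kb and both KO libraries were listed at 0. The long-arm end of chromosome 7 held 156 and 151 kb in WT and 13.4 and 12.7 kb in KO. On chromosome 5 the first 200 kb held 110 and 122 kb in WT and 10.7 and 10.4 kb in KO. The long-arm end of chromosome 21 held 154 and 142 kb in WT and 29.6 and 30.8 kb in KO. The start of chromosome 16 was the 1 end that was higher in KO, with 8.28 and 12.6 kb in WT and 22.4 and 27.2 kb in KO. Both ends of chromosome 9, the starts of chromosomes 1 and 6 and the ends of chromosomes 16 and 19 overlapped between genotypes. Among them, the ends of chromosomes 16 and 19 held 23.4 to 32.2 kb in each library. The others held almost nothing in either genotype, at most 2.68 kb in any library. All ends named here were chosen after their values were seen.

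Long γH2AX domains showed the same geography. The WT lists held 66 and 64 regions of 5 kb or more, and all of them lay within 1 Mb of a chromosome end. The KO lists held 40 and 43 such regions, of which 3 and 10 lay within 1 Mb of an end. The long WT domains recurred between WT replicates: WT mock replicate 2 covered 82.1% of the length of the 66 long regions of replicate 1, and replicate 1 covered 82.2% of that of the 64 in replicate 2. Of the same 66 regions, KO replicates 1 and 2 covered 11.5 and 10.6% of the length, and of the 64 they covered 16.9 and 16.6%. Traces of the mark were nonetheless called there. KO regions, none of them of 5 kb or more, touched 40 and 37 of the 66 long regions of WT replicate 1 in the 2 KO lists. In both WT lists the share of regions near an end climbed with length, from 13.2 and 17.5% of those of 500 bp or less to 92.2 and 95.5% of those of 2 to 5 kb. In KO that share stayed between 6.95 and 23.3% in every length class.

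**Figure D2:**
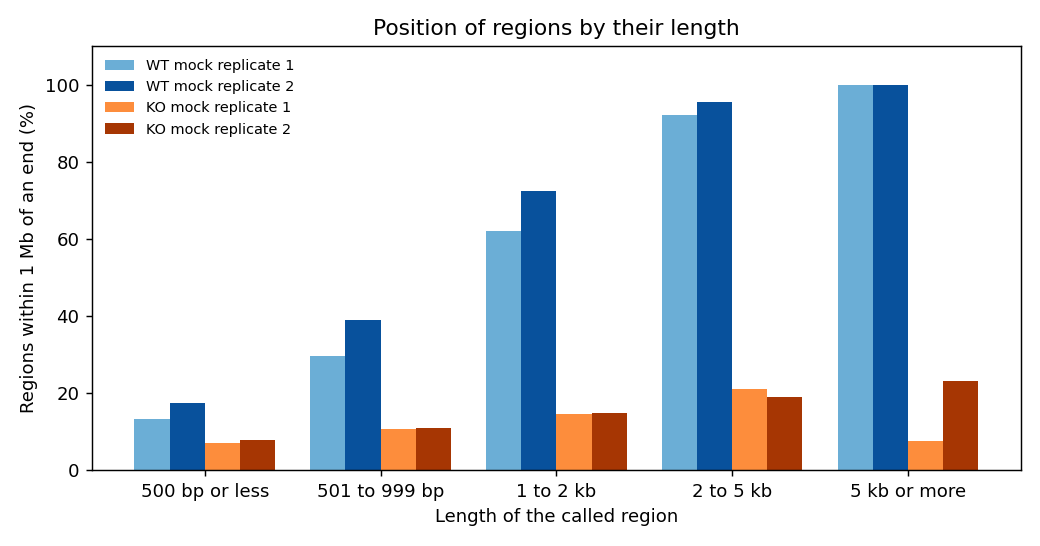
Share of called regions that lie within 1 Mb of a chromosome end (%, vertical axis) by length class of the region (horizontal axis), 1 bar per mock library. The WT bars climb to 100% for regions of 5 kb or more, and the highest KO bar is 23.3%.

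Short and middle-sized regions made up the rest of the difference. Regions longer than the caller's 500-bp window were 29.2 and 30.6% of the WT lists and 38.0 and 38.3% of the KO lists. Regions of 2 kb or more numbered 347 and 329 in WT and 584 and 715 in KO, so that the KO lists held more regions of 2 kb and fewer of 5 kb. The 5290 gained loci covered 6.89 Mb with a median length of 1015 bp. The 1407 lost loci covered 1.90 Mb with a median of 929 bp. The 466 loci called in all 4 lists had a median of 2527 bp. Loci called in a single library were the most numerous, 31096 in KO and 17324 in WT, each with a median of 500 bp. These are the loci just outside the rule, and they were not called again in the replicate.

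Gained loci were more numerous than lost ones and had lower folds over input, as did the KO lists as a whole. The number of gained loci fell to 2148 when list lengths were made equal. At that setting the bins described below were nearly balanced, with 689 higher and 633 lower in KO. The lower of the 2 folds over input, as the authors gave them, had a median of 3.65 among gained and 4.27 among lost loci, and 297 gained (5.61%) and 215 lost (15.3%) loci reached 6-fold. The median input signal was 8.04 tags per kb in gained and 5.72 in lost loci, against 6.05 over all mock loci. These differences ran through the whole lists: the median fold was 4.92 and 4.77 in the WT lists and 4.17 and 4.37 in the KO lists, and the median input signal was 6.0 in each WT list and 7.93 and 8.10 in the KO lists. Of all mock loci, 2.21% lay within 200 kb of an end, 8.58% from 200 kb to 1 Mb, 15.6% from 1 to 5 Mb and 49.3% over 20 Mb. Only 13 gained loci (0.246%) lay within 200 kb of an end, and 1431 (27.1%) lay 1 to 5 Mb from one. Of the lost loci, 358 (25.4%) lay within 200 kb and 419 (29.8%) from 200 kb to 1 Mb. A further 413 lost loci (29.4%) lay over 20 Mb from any end, a smaller share than among all mock loci.

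The covered length of 100-kb bins gave the same picture with a test. Of 9474 bins tested in limma, 1639 (17.3%) were higher and 339 (3.58%) were lower in KO mock cells at a Benjamini-Hochberg adjusted p of 0.05. The genotypes did not overlap in any of these bins, which follows from their selection. Of all tested bins, 32.8% had both KO libraries above both WT libraries and 10.9% had both below. The split was 1185 higher and 569 lower after each library was centred on its median, and 689 and 633 when list lengths were made equal. Without WT mock replicate 1 or 2 the fit called 868 or 1019 higher and 222 or 355 lower bins, and without KO mock replicate 1 or 2 it called 1086 or 1050 higher and 200 or 181 lower bins. The higher bins went from a median of 0.25 kb in WT to 4.24 kb in KO, and 701 of them (42.8%) were at 0 in both WT libraries. The lower bins went from a median of 3.54 kb to 0, and 171 of them (50.4%) were at 0 in both KO libraries. The median bin of all those tested was 0.29 higher on the log2 scale. Within 200 kb of an end, 60 of 81 tested bins were lower and 1 was higher. From 1 to 5 Mb, 384 of 895 were higher (42.9%) and 26 lower. Beyond 20 Mb, 698 of 5982 were higher (11.7%) and 164 lower (2.74%).

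Chromosomes differed strongly in what they gained. Chromosome 19, the most gene-dense human chromosome, carried 864 gained loci among 4328 mock loci, or 146 gained per 10 Mb. Chromosome 16 carried 528 of 3653 (58.6 gained per 10 Mb). Chromosome 22 carried 246 of 1666 (48.0) and chromosome 17 carried 367 of 3565 (45.2). Over all mock loci 8.92% were gained, and the share on chromosome 17 was not far from that. Chromosomes 13 and 14, with only 418 and 447 mock loci, carried 19 (1.65) and 26 (2.42). Called length on chromosome 14 nonetheless rose, from 20.9 and 21.8 kb in the WT libraries to 112 and 129 kb in the KO libraries. On chromosome 13 the called length was 105 and 82.2 kb in WT and 85.8 and 81.9 kb in KO. Called length on chromosome 19 was 128 and 199 kb in the WT libraries and 1855 and 2029 kb in the KO libraries, and 226 of its 379 tested bins were higher (59.6%) while 3 were lower. Chromosome 16 went from 242 and 295 kb to 1469 and 1547 kb. Lost loci were distributed otherwise. Per 10 Mb, chromosome 18 carried the most (11.5, or 90 of its 1261 mock loci). Chromosomes 6 (9.12, 156 of 4838), 21 (7.90, 38 of 1417), 1 (7.74, 193 of 8417) and 3 (7.48, 148 of 2789) followed. Over all mock loci 2.37% were lost, and the shares on chromosomes 1, 6 and 21 were nearer to that than those on 3 and 18. Chromosomes 10 and 13 carried 97 of 2286 and 21 of 418. Chromosomes 3 and 18 were the ones whose called length fell in KO past the threshold (limma), from 750 and 535 kb to 380 and 374 kb on chromosome 3 and from 418 and 300.5 kb to 176 and 152 kb on chromosome 18. The number of gained loci per 10 Mb went with the number of protein-coding genes per Mb over the 22 chromosomes (Pearson r = 0.93, Spearman rho = 0.74; r = 0.75 and rho = 0.70 without chromosome 19). Lost loci per 10 Mb did not follow it (r = −0.08, rho = 0.04). These correlations are descriptions over chromosomes that share the same libraries, with gene numbers per chromosome from RefSeq on GRCh38.p14. Mock loci as a whole were also dense on chromosome 19 and sparse on chromosomes 13 and 14. How the gained share of mock loci went with gene density was not computed.

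As a share of each library's covered length, 9 of 22 chromosomes (40.9%) were higher and 10 (45.5%) were lower in KO in limma. Shares add up to a whole, so rises force falls. In covered length itself 14 chromosomes were higher and 2 were lower. The difference in log2 share was 2.65 for chromosome 19 (SE 0.29, limma adjusted p = 4.39e-05) and −2.07 for chromosome 18 (SE 0.14, limma adjusted p = 2.04e-06). Chromosome 22 differed by 1.49 (SE 0.19, limma adjusted p = 8.91e-05), which no longer passed, at 0.36, with 1 window threshold for all libraries.

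**Figure D3:**
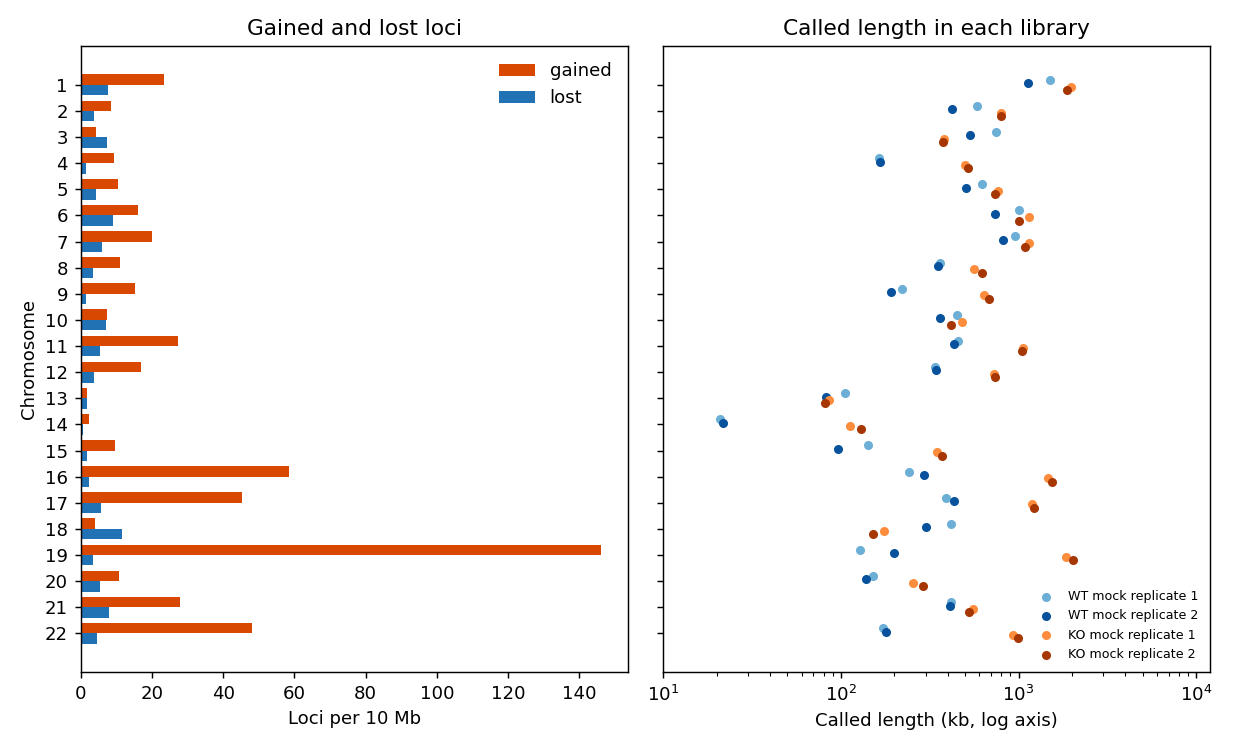
Left, gained and lost loci per 10 Mb (horizontal axis) on each autosome (vertical axis). Right, called length in each of the 4 mock libraries (kb, log axis). Chromosome 19 stands at 146 gained loci per 10 Mb, and chromosomes 3 and 18 are the ones on which called length fell in KO past the threshold.

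The changed bins formed blocks of up to several megabases. Runs of at least 3 bins changed in the same direction, with 1 unchanged bin allowed between them, numbered 165 for higher bins and 33 for lower bins. The 165 runs of higher bins held 982 bins and 3296 gained loci (62.3% of them) in 115.6 Mb, or 4.01% of the autosomal span. Of these runs 25 lay on chromosome 1, the longest chromosome, 19 on chromosome 19, 15 on chromosome 17, 14 each on chromosomes 11 and 16 and 13 on chromosome 12, and 3 lay within 1 Mb of an end. The 33 runs of lower bins held 146 bins and 634 lost loci (45.1%) in 16.3 Mb, and 23 of these runs lay within 1 Mb of an end. Runs and loci were chosen from the same mock lists, so the shares of gained and lost loci inside runs follow in part from that choice. The share of all mock loci inside the runs was not computed. The number of runs of higher bins fell to 71 when the fit held only the 4 mock libraries, and to 79 to 99 when 1 mock library was left out. Runs of lower bins fell to 11 and to 14 to 24. When regions had to reach 6-fold over input, 3 runs of higher and 4 of lower bins were left. The genes named below lie in these segments by general knowledge of hg19. No hg19 annotation was used here, so no overlap with an exon, intron or promoter was computed.

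The longest block of higher bins was the outer short arm of chromosome 19, chr19:400001-5300000, with 44 changed bins and 270 gained loci. It held 11.1 and 31.9 kb of γH2AX in WT mock and 496 and 614 kb in KO mock. This segment carries STK11, a kinase that acts upstream of AMPK, TCF3, a transcription factor of B-cell development, DOT1L, the H3K79 methyltransferase, EEF2, the elongation factor of translation, and UHRF1, which recruits DNA methylation to replicating chromatin. Another 2 blocks lay on chromosome 19. At chr19:48600001-51600000, which carries BAX, FTL, RPL13A, PRMT1 and the DNA polymerase δ gene POLD1, WT held 4.50 and 7.33 kb and KO 165 and 167 kb. At chr19:17300001-19800000, which carries JAK3, PIK3R2 and JUND, WT held 4.64 and 12.4 kb and KO 189 and 234 kb. The order of the genotypes within a block follows from how blocks were chosen, so the values describe its size.

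On chromosome 16 the block chr16:100001-3800000 held 37.0 and 60.7 kb in WT and 358 and 437 kb in KO, with 31 changed bins. It carries AXIN1 and MLST8, regulators of Wnt and mTOR signalling, TRAF7, a ubiquitin ligase, and SLX4, a nuclease scaffold that is itself a Fanconi anaemia gene. At the other end of the chromosome, chr16:87300001-89500000 held 16.8 and 32.5 kb in WT and 204 and 242 kb in KO. It carries ZFPM1, the GATA1 cofactor of erythroid and megakaryocytic cells, and CYBA, a subunit of the phagocyte oxidase. The block chr17:77700001-80500000 held 45.6 and 77.7 kb in WT and 316 and 353 kb in KO. It carries FASN, the fatty acid synthase, and ACTG1, cytoplasmic actin. On chromosome 4, chr4:1200001-3900000 went from 9.49 and 20.1 kb to 222.5 and 241 kb. That segment carries FGFR3, the H3K36 methyltransferase NSD2, MAEA, which acts in erythroblast islands, and UVSSA, a factor of transcription-coupled repair. On chromosome 11, chr11:64300001-66400000 went from 12.6 and 13.7 kb to 178 and 182 kb. It carries MEN1, RELA and the abundant nuclear RNAs NEAT1 and MALAT1. It is the only 1 of these 8 blocks that lies over 20 Mb from an end.

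Blocks of lower bins were shorter and lay mostly at ends. The largest was an exception: chr3:4200001-5300000, whose centre lies 4.75 Mb from the end, held 130 and 80.3 kb in WT mock and 7.13 and 5.77 kb in KO mock, with 10 changed bins and 53 lost loci. It carries ITPR1, the calcium channel of the endoplasmic reticulum, SUMF1, which activates sulfatases, SETMAR, a methyltransferase fused to a transposase, and BHLHE40, a circadian transcription factor. At the start of the same chromosome, chr3:1-700000 held 104 and 97.8 kb in WT and 0 and 0.5 kb in KO. The start of chromosome 18, chr18:1-900000, which carries USP14, THOC1 and the thymidylate synthase gene TYMS, went from 143 and 105 kb to 10.6 and 6.19 kb. The start of chromosome 2, chr2:1-700000, which carries ACP1, went from 147 and 124 kb to 8.82 and 7.32 kb. The end of chromosome 11, chr11:134200001-135000000, went from 124 and 121 kb to 3.69 and 6.54 kb. The end of chromosome 7, chr7:158400001-159200000, which carries the receptor gene VIPR2, went from 392 and 355 kb to 110 and 103 kb. KO cells thus kept a smaller domain there, while the start of chromosome 3 was almost empty.

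The other 2 named blocks of lower bins lay far from any end. The second of them, with 5 changed bins, tied with 3 blocks within 1 Mb of an end, chr10:1-500000, chr6:200001-800000 and chr18:77500001-78100000, which held 79.8, 99.3 and 87.4 kb on average in WT. On chromosome 1, chr1:109100001-109700000 held 32.2 and 21.1 kb in WT and 2 and 1.5 kb in KO. It carries STXBP3, a regulator of vesicle fusion, and GPSM2, which orients the mitotic spindle. At chr1:219900001-220500000, which carries the aminoacyl-tRNA synthetase genes EPRS1 and IARS2, WT held 30.2 and 14.3 kb and KO 0.5 and 1 kb. At the second block the WT replicates themselves differed widely.

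**Figure D4:**
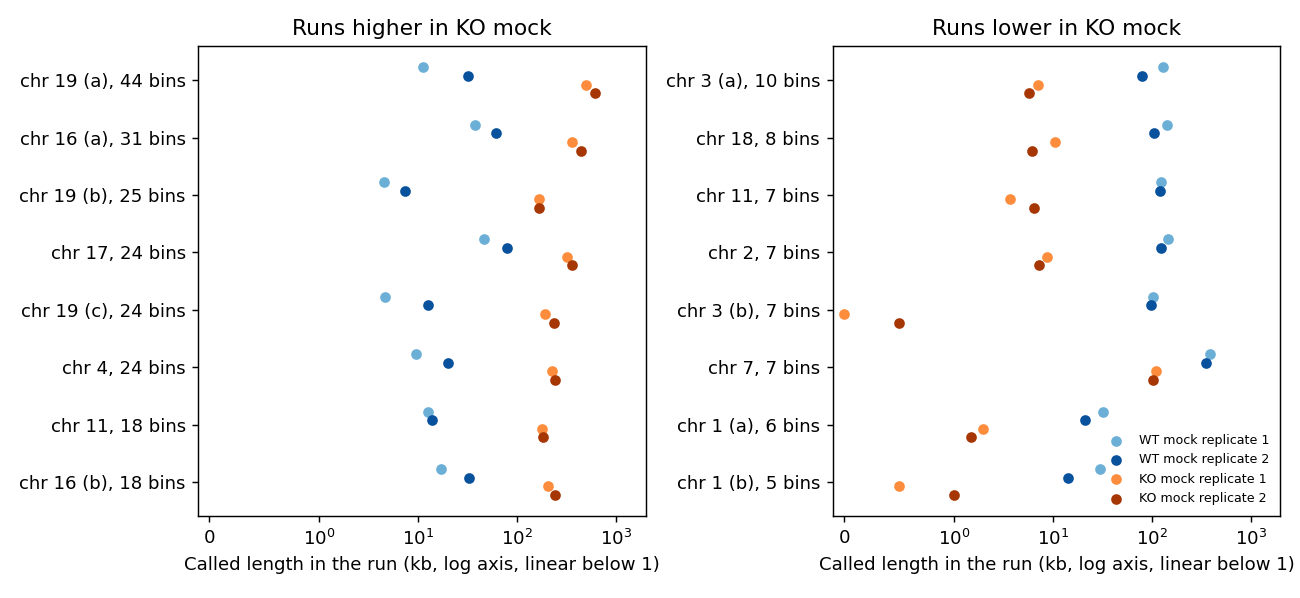
Called length (kb, log axis, linear below 1) of the 8 runs with the most changed bins in each direction, 1 point per mock library. Labels give the chromosome and the number of changed bins, and letters tell apart runs of one chromosome. The runs were chosen from bins that differed, so the KO points lie on one side of the WT points, from 11.1 and 31.9 against 496 and 614 kb in the first run on the left.

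The bins with the largest changes also differed in position. On each of the 22 autosomes, the bin with the largest rise and the bin with the largest fall past the threshold were taken. Of the 22 falls, 19 lay within 1 Mb of an end, and of the 22 rises 1 did, while 12 rises lay 1 to 5 Mb from an end. The largest rise of all was on chromosome 2 from 3400001 to 3500000, where WT held 0.5 and 1.5 kb and KO 47.0 and 41.1 kb (log2 difference 4.54, SE 0.28, limma adjusted p = 0.000868). It carries TRAPPC12, a subunit of a vesicle-tethering complex, and the second longest gained locus, chr2:3466452-3477939, of 11487 bp. The largest fall was on chromosome 3 from 100001 to 200000, with 42.9 and 41.4 kb in WT and 0 in both KO libraries (log2 difference −5.43, SE 0.34, limma adjusted p = 0.000868). At MAEA and UVSSA, in the chromosome 4 bin starting at 1300001, called length rose from 0 and 0.5 kb to 21.8 and 29.3 kb. The bin of chromosome 14 from 105200001 to 105300000, which carries the kinase gene AKT1, was at 0 in both WT libraries and held 6.87 and 7.54 kb in KO. The bin of chromosome 6 from 500001 to 600000, at the exocyst gene EXOC2, fell from 40.2 and 25.4 kb to 2.90 and 2.49 kb.

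The calls of single bins depended on how strong a region had to be. At a minimum of 6-fold over input, 153 bins were higher and 93 lower. Of the 44 named bins, 10 kept their call at that level, and each of these was a fall within 250 kb of an end. Another 30 no longer passed, 1 of them, on chromosome 1 from 27800001, at a difference of 0. A further 2 were not tested, and 2 falls turned to slightly positive values that did not pass (0.29 on chromosome 11 from 134900001, and 0.30 on chromosome 21 from 48000001).

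The 246 gained loci on chromosome 22 had a median input signal of 28.1 tags per kb, against 8.02 in the 5044 on the other autosomes. The longest gained locus, chr22:23608418-23624197, of 15779 bp, lies in BCR, where the WT mock input was 65.8 tags per kb. Its folds over input were 2.09 and 2.18. A second, chr22:20091465-20102917, at DGCR8, a partner of DROSHA in microRNA processing, had an input of 41.0 tags per kb and folds of 2.11 and 2.38. Of the KO regions of 5 kb or more, 23 of 40 in replicate 1 and 18 of 43 in replicate 2 lay on chromosome 22, against 0 in each WT list. The part of a changed copy number in the KO cells was not tested. Away from chromosome 22, the 5 named longest gained loci had input signals of 7.97 to 13.6 tags per kb. The locus in FASN, chr17:80035391-80042696, measured 7305 bp, with an input of 10.9 tags per kb and folds of 3.22 and 3.50. The locus in ATP13A1, a transporter ATPase of the endoplasmic reticulum, at chr19:19761936-19768624, measured 6688 bp, with an input of 7.97 tags per kb and folds of 4.15 and 4.95. The longest lost loci all had their centres within 300 kb of an end. They began with chr3:60138-76976, of 16838 bp and folds of 5.85 and 5.01, chr11:134899440-134909886, of 10446 bp, and chr2:32932-42410, of 9478 bp.

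The loci with the highest fold over input were short and rested on very little input. Among gained loci the first was chr2:166789892-166790673, with folds of 31.3 and 38.1 and an input of 0.998 tags per kb. The 8 highest measured 505 to 784 bp, and their lower folds ran from 23.8 to 31.3. Among lost loci the first was chr12:133439894-133440644, with folds of 32.6 and 36.6 over an input of 0.748 tags per kb, and the 8 highest ran from 17.9 to 32.6. A fold over about 1 input tag is imprecise. Of the 8 gained loci with the highest fold, 5 were called in no PMA list. The share called in no PMA list was 20.2% over all gained loci and 49.9% over all mock loci.

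The PMA lists gave a look at the same loci in libraries that the choice of loci had not used, although they were called against the same input. Gained loci were called far more often in KO than in WT cells after PMA. KO PMA replicates 1 and 2 called 66.7 and 60.9% of them, and WT PMA replicates 1 and 2 called 16.5 and 22.1%. Over all 59286 mock loci the shares were 30.1 and 25.9% in KO PMA and 16.6 and 16.1% in WT PMA. Lost loci went the other way, with 39.8 and 32.9% called in the WT PMA libraries and 14.1 and 12.1% in the KO PMA libraries. In both classes the genotypes did not overlap, and 2 libraries against 2 allow no exact permutation p below 0.33. Both KO PMA lists and neither WT PMA list called 1791 gained loci (33.9%) and 19 lost loci (1.35%), against 11.7% of all mock loci. Both WT PMA lists and neither KO PMA list called 50 gained (0.945%) and 197 lost loci (14%), against 3.0% of all. No PMA list called 642 lost loci (45.6%), close to the 49.9% of all mock loci, and no PMA list called 1071 gained loci (20.2%).

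**Figure D5:**
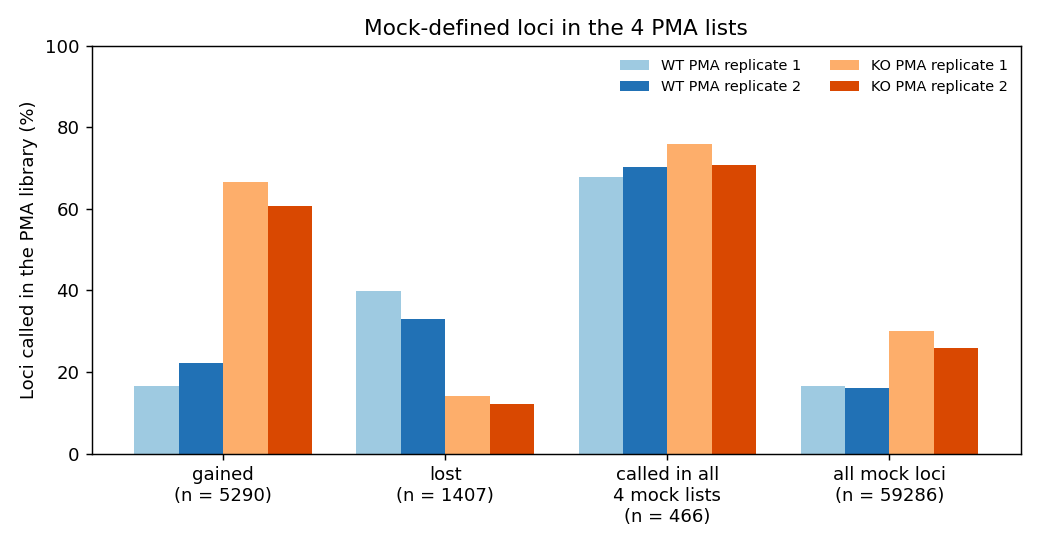
Share of mock-defined loci that were called again in each of the 4 PMA libraries (%, vertical axis), for gained loci, lost loci, loci called in all 4 mock lists and all mock loci. The KO PMA bars of the gained loci reach 66.7 and 60.9%, against 16.5 and 22.1% for WT PMA, and the order is the opposite for lost loci.

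The blocks called from the difference between the mock groups kept their order after PMA in most cases. The PMA libraries had entered the bin filter and the variance of the fit, so they give no independent look at these blocks. Of the 165 runs of higher bins, 144 had a higher mean in KO PMA than in WT PMA, and all 33 runs of lower bins had a lower mean in KO PMA. Of all tested bins, 35.8% had a higher and 54.2% a lower mean in KO PMA. These shares are over single bins, whereas a run sums several neighbouring bins, so they are no like-for-like background for runs. On chromosome 19, chr19:400001-5300000 held 32.7 ± 21.8 kb in WT PMA and 1734 ± 181 kb in KO PMA (mean ± SD of 2 libraries). The interior block of lost γH2AX, chr3:4200001-5300000, held 290.3 ± 41.1 kb in WT PMA and 25.4 ± 0.378 kb in KO PMA. Under mock treatment its WT level was 105 ± 35.4 kb. Some ends held little in either genotype after PMA. At chr2:1-700000, WT went from 136 ± 16.2 kb under mock treatment to 11.2 ± 0.134 kb in PMA, while KO held 8.07 ± 1.06 and 0.25 ± 0.354 kb. At chr11:134200001-135000000, WT went from 122 ± 2.19 to 6.57 ± 0.435 kb. Exceptions among the higher blocks included chr5:600001-2200000, with 188.6 ± 14.4 kb in KO mock against 43.2 ± 13.4 kb in WT mock, but 60.1 ± 15.3 kb in KO PMA against 74.3 ± 9.46 kb in WT PMA. The last block was chosen after its values were seen.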

How the data were processed

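γH2AX ChIP-seq lists of K562 cells were used as deposited. The submitters' processing notes name CASAVA 1.4, BWA, HOMER and the build hg19. HOMER was run once per library, always with the WT mock input as control, per the file headers. Windows of 500 bp passed a tag threshold set per library at a probability of 0.001, at least 2-fold over input at 0.0001, with 1 tag per bp. The deposited signal is tags per 10 M for a region, or input tags. Where a list gave input tags scaled to its library, as in KO mock, they were scaled back to the input's depth. That depth, 18.6 M tags, was estimated from the lists whose library tags had been scaled to the input. Input signals per kb rest on this conversion. The deposited score is the tag number of the best window of a region. The deposited fold is the authors' ratio of tags to input. The threshold was 6.26 and 6.42 tags per 10 M in WT mock and 7.30 and 7.69 in KO mock.

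Regions sharing at least 1 bp were merged into loci. Covered bp in bins of 100 kb, for bins covered in at least 2 of the 8 libraries, were tested as log2(bp + 1000) in limma 3.58.1 (R 4.3.3, mean-variance trend, 1 fit of 4 groups, two-sided), as were log2 chromosome shares. Log2 differences on this scale understate changes of little-covered bins, and neighbouring bins are not independent. The fit was also run on simulated data with independent normal noise of equal spread in every bin. The real bins hold many zeros, so that run cannot tell how well the calls made here hold. Distances were measured from base 1 or from the last called position of a chromosome, which may lie inward of its true end. The short arms of the 5 acrocentric chromosomes were left out. The other tools were scipy 1.17.1, pandas 2.3.3, numpy 2.4.6 and Python 3.11.15.

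The members and lists were chosen with earlier results of these data known. Bins were named by rule (the largest rise and fall per autosome), as were runs (the 8 with the most changed bins) and loci (the 8 longest and the 8 of highest fold per class, at most 1 per Mb). Tests per gene and gene lists, which that rule also names, were not run, because no hg19 annotation was used here. Of the gene names given as background, all 105 considered matched the RefSeq table (GRCh38.p14) on the stated chromosome. Alternatives were regions of at least 6-fold or 1000 bp, 1 tag or window threshold for all libraries, equal list lengths, centring, other pseudocounts, filters, bin sizes and overlaps, only the mock libraries, a replicate block, and leaving out each mock library.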

Additional observations from a re-analysis of the deposited data

Results flagged for a closer look

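Among the 44 named bins, 3 were higher in KO than in WT under mock treatment and lower in KO than in WT after PMA, with no overlap between the genotypes in either. The difference between the treatments was not tested. These bins were named for their rise under mock treatment, so the order there follows from that choice. Of all 9474 tested bins, 54.2% had a lower mean in KO PMA than in WT PMA. The share of all tested bins with the same reversal was not computed. On chromosome 5 from 1600001 to 1700000, the mean difference of KO from WT was 10.5 kb under mock treatment (WT 0 in both libraries, KO 11.4 and 9.53 kb) and −1.21 kb after PMA (WT 1.20 and 1.71 kb, KO 0 and 0.5 kb). On chromosome 10 from 3100001 to 3200000, a bin at the phosphofructokinase gene PFKP, it was 7.50 kb under mock treatment (WT 0 in both libraries, KO 8.70 and 6.29 kb) and −9.25 kb after PMA (WT 17.3 kb in each library, KO 6.09 and 9.97 kb). On chromosome 18 from 20800001 to 20900000, it was 3.95 kb under mock treatment (WT 1.5 and 0 kb, KO 5.48 and 3.92 kb) and −2.90 kb after PMA (WT 3.87 and 4.57 kb, KO 1.64 and 1 kb). The rise of this last bin under mock treatment (limma adjusted p = 0.048) no longer passed under 10 of 16 alternatives.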

How the results depend on the processing

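The number of higher bins (1639) was 153 with regions of at least 6-fold, 522 with those of at least 1000 bp, 689 with equal list lengths and 970 with only the 4 mock libraries, and 868 to 1086 when 1 mock library was left out. Lower bins (339) numbered 93 at 6-fold, 219 with 1 tag threshold, 87 with 1 window threshold and 88 from 1000 bp. They numbered 633 with equal list lengths, 569 after centring, 224 in bins of 250 kb, and 181 to 355 when 1 library was left out. The fit of only the 4 mock libraries called 299 lower bins, of which 159 were among the 339. Of its 970 higher bins, 757 were among the 1639. With 1 window threshold, which was added after seeing the data, 2135 bins were higher. Chromosomes higher and lower numbered 14 and 2 in covered length in place of share. Gained loci (5290) numbered 334 at 6-fold, 885 from 1000 bp and 2148 with equal list lengths. Without 1 mock library, which asks for fewer calls, they numbered 5607 to 21381. Lost loci (1407) numbered 242 at 6-fold, 836 with 1 tag threshold, 252 with 1 window threshold, 307 from 1000 bp, 861 with no KO region within 5 kb, and 1633 to 11883 without 1 library. The log2 difference in covered length from 200 kb to 1 Mb of an end turned to 0.80 with 1 window threshold. At 6-fold, the bins on chromosome 11 from 134900001 and chromosome 21 from 48000001 turned to 0.29 and 0.30. The cause was not tested, except that higher minima leave fewer regions.

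Replicate numbers did not pair the libraries (correlation of deviations 0.03 between WT mock and KO mock, −0.06 to 0.16 over the 6 pairs of groups). With the replicate block, 1439 bins were higher and 306 lower, and of the 44 named bins 43 kept their call. The thresholds per 10 M tags were higher in the KO lists, and the part of depth was not tested.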
